A study of Drosophila melanogaster with 2 samples.

Results

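In the authors' reproducible list of Krüppel (Kr) binding sites, 789 peaks (37.5%, Wilson 95% interval 35.5 to 39.6) had their summit more than 100 and at most 2000 bp from the nearest annotated transcription start site (TSS) of a protein-coding gene, on either side. These are called flanking peaks here. They were chosen by position alone, with every annotated transcript start of a protein-coding gene in Ensembl release 115 counted as a TSS. Ranges of distance exclude their lower limit. Upstream of the TSS lay 492 of them, 290 at 100 to 500 bp and 202 at 500 to 2000 bp. Downstream of it lay 297, 92 at 100 to 500 bp and 205 at 500 to 2000 bp. The rest of the list were 225 core peaks, within 100 bp of a TSS, and 1088 distal peaks, over 2000 bp away. Sequence at flanking distances made up 30.3% of all bases. It held 19.5 summits of the list per Mb, against 15.7 per Mb over all sequence.

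The experiment was chromatin immunoprecipitation with sequencing on intact fly embryos (Drosophila melanogaster), both sexes together, 0 to 10 h old. The embryos, of strain Kr-GFP, came from a transgenic line that stably expresses Kr fused at its C terminus to GFP, and an anti-GFP antibody brought down the tagged protein from sonicated chromatin. There was 1 group with 2 biological replicates, numbered 2 and 3, and hence no comparison between conditions. The reproducible list, called the IDR list after the irreproducible discovery rate, was made by the authors from both replicates, and the permissive lists of each replicate and of both pooled held 30000 peaks each. The labels do not settle whether the tag sits at the Kr locus or on an additional copy, and whole embryos mix all cell types over many stages. The files hold no expression values against which the tissue could be checked. They hold no read counts either, so depth is unknown and all intervals cover counting error only.

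Kr is a zinc-finger protein best known as a gap gene product, which divides the trunk of the early embryo by repressing other segmentation genes, and it later takes part in the temporal series of neuroblasts. Repressors of this kind bind enhancers, which can lie far from a gene, beside its promoter or in its introns. The core promoter itself holds short elements at which RNA polymerase II and general factors assemble, and different elements mark housekeeping and developmentally regulated genes.

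The sequence around the summit is shown for 1 high flanking peak with the Kr word in each of 3 of the 4 positions, since these carry the comparison of the word by position that follows. The word searched was AAGGGTT, the core of the Kr site, whose reverse complement is AACCCTT. Capitals mark each match on either strand within 100 bp of the summit, which is the middle base. The sequences are from RefSeq, Release 6 of the genome (dm6), read 5′ to 3′. Turtle (tutl) stands for upstream 100 to 500 bp, where the Gpat4 peak with the word is higher and its sequence is not shown. Slalom (sll) for upstream 500 to 2000 bp and Desat1 for downstream 100 to 500 bp are the highest of their positions with the word.
tutl, chr2L:4282810-4283010, plus strand: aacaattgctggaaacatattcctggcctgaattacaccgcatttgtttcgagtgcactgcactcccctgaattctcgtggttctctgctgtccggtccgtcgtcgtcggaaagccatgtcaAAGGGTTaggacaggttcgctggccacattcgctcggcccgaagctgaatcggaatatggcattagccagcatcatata
sll, chr3R:17604773-17604973, plus strand: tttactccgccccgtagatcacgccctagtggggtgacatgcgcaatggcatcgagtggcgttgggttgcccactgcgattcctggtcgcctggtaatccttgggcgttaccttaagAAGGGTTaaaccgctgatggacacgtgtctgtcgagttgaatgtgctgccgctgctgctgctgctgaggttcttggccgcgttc
Desat1, chr3R:12439837-12440037, plus strand: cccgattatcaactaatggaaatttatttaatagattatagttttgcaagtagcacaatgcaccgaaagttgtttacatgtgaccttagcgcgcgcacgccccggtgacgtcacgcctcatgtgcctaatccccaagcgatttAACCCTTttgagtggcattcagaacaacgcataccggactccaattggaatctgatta

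A further 4 windows are shown for flanking peaks at segmentation genes, some with the word and some without. Of all flanking peaks, 11.4% had the word. It is present at giant (gt) and knirps (kni) and absent at drumstick (drm) and empty spiracles (ems). The kni window holds the word 3 times, centred at 26 bp on the lower-coordinate side of the summit and at 4 and 33 bp on the other.
gt, chrX:2429051-2429251, plus strand: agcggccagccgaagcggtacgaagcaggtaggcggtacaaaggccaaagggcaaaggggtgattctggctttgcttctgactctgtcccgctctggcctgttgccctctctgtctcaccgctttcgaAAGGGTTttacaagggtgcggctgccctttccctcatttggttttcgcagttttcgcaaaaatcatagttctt
kni, chr3L:20696599-20696799, plus strand: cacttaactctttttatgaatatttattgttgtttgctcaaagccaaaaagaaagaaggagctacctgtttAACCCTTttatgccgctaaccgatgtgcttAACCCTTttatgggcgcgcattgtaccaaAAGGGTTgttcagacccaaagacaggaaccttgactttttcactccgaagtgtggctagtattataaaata
drm, chr2L:3538613-3538813, plus strand: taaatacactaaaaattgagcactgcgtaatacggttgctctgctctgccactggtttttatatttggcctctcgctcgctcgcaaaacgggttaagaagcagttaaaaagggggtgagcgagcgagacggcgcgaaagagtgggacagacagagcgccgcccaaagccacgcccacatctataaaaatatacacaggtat
ems, chr3R:13901628-13901828, plus strand: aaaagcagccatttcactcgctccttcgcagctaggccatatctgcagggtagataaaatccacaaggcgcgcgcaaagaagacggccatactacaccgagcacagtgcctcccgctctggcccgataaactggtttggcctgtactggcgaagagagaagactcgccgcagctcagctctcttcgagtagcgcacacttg

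Kr peaks were crowded against promoters on the upstream side. From 100 to 500 bp upstream the IDR list held 56.7 summits per Mb of sequence at that distance (exact Poisson 95% interval 50.3 to 63.6), and from 100 to 500 bp downstream 14.0 per Mb (11.3 to 17.2). The density ratio of upstream over downstream was 4.05 (exact 95% interval 3.19 to 5.17). In as many of the highest peaks of replicate 2 alone the densities were 52.2 upstream and 16.7 downstream, a ratio of 3.12. In those of replicate 3 alone they were 61.2 and 13.7, a ratio of 4.46. Both replicates thus had the same side higher by more than the counting error. With only the outermost start of each gene as TSS, the ratio was 2.11 (1.65 to 2.71), from 174 upstream and 109 downstream summits. All bases were counted in these densities. Coding exons filled 7.25% of the bases at 100 to 500 bp upstream and 47.2% of those downstream. They held 0 of the 290 summits upstream and 9 of the 92 downstream, and their part in the ratio was not tested.

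Density fell off with distance on the upstream side. It was 77.3 summits per Mb at 100 to 200 bp upstream, 71.1 at 200 to 300 bp and 35.1 at 300 to 500 bp. Farther out, the 3 bins between 500 and 2000 bp upstream held 16.9 to 19.2 per Mb. Downstream, the density was 16.8 per Mb at 100 to 200 bp and 10.6 to 13.9 in the 5 bins beyond. Distal sequence held 12.2 per Mb (11.5 to 12.9) and core promoters 61.7 (53.9 to 70.3), so the intervals of the 2 nearest upstream bins (63.9 to 92.7 and 57.4 to 87.1) overlap that of the core, and those of the downstream bins lie below it.

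**Figure D1:**
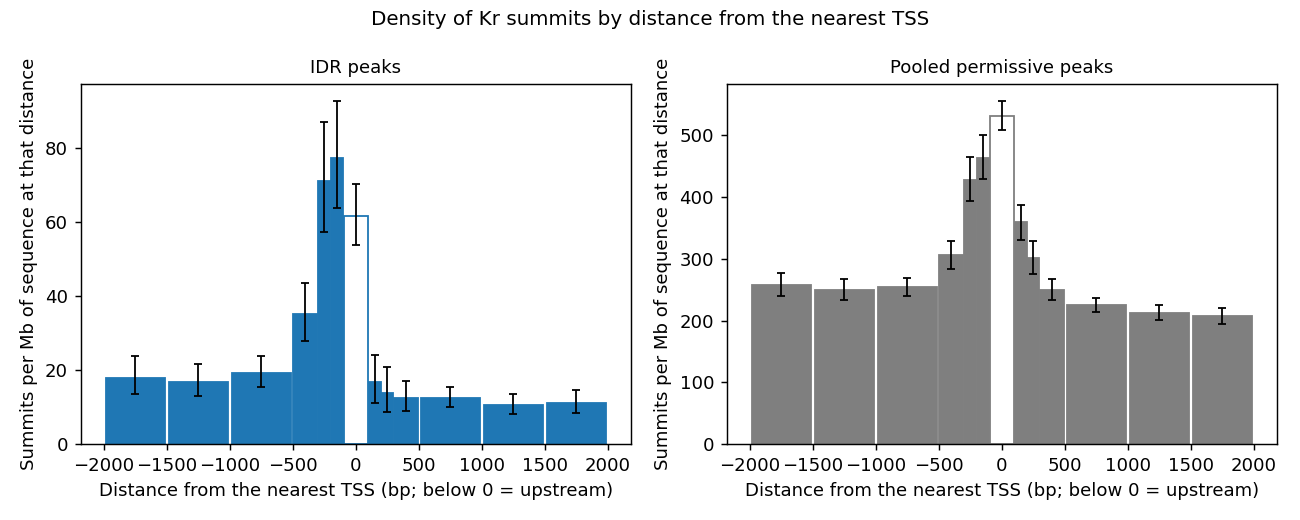
Summits per Mb of sequence (vertical axes) by distance from the nearest TSS in bp (horizontal axes, below 0 is upstream), for the IDR peaks (left) and the 30000 pooled permissive peaks (right). Filled bars cover 100 to 2000 bp, the open bar is the core within 100 bp, and lines are exact Poisson 95% intervals; IDR density reaches 77.3 per Mb just upstream and 16.8 just downstream, and the pooled list is less lopsided.

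The skew was smaller in the permissive list, which is mostly low peaks. The pooled permissive list held 383 summits per Mb at 100 to 500 bp upstream and 292 downstream, a ratio of 1.32 (1.23 to 1.40), and its peaks outside the IDR list had a ratio of 1.18 (1.10 to 1.26). Of the pooled peaks beside promoters, 7.49% were in the IDR list, against 7.01% of pooled peaks at all distances. The share was 14.8% at 100 to 500 bp upstream, 7.16% at 500 to 2000 bp upstream, 4.80% at 100 to 500 bp downstream and 5.35% at 500 to 2000 bp downstream. Core peaks had 11.6% and distal peaks 6.21%. Membership of the IDR list is itself a threshold on the pooled signal, so these shares restate height by position. Sequence to which reads map poorly was counted in the densities, and its part in them was not tested.

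Some upstream summits lay between head-to-head starts, where upstream of one gene is also upstream of another. Of the 492 upstream flanking peaks, 65 lay between a pair of starts that point away from each other, both within 2000 bp. At 100 to 500 bp these were 53 (18.3% of summits, against 16.0% of bases at that distance), and at 500 to 2000 bp 12 (5.94%, against 4.34% of bases). The tutl peak is the highest of them. An annotated start of a non-coding RNA gene lay within 100 bp of 10 flanking summits (1.27%), and the share of bases that near to one is not given here.

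The highest flanking peaks at 100 to 500 bp upstream lay at genes of varied function. Gpat4, a glycerol-phosphate acyltransferase gene, led with rank 5 in the IDR list and signals of 636 and 485 in replicates 2 and 3 (mean 560 ± 106, SD, n = 2), 133 bp from an alternative start and with the Kr word. Plexus (px), needed for the pattern of wing veins, followed at rank 11 with 339 and 328, 207 bp upstream and without the word. Turtle, which encodes a neural immunoglobulin-family protein, ranked 20 with 317 and 189 at 238 bp. The signal is the authors' value for each peak, of unknown scale, and ranks peaks within a list. Replicate 2 was the higher for each of these 3 peaks.

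Polyhomeotic proximal (ph-p), a subunit of Polycomb repressive complex 1, ranked 34 with 194 and 245 in replicates 2 and 3, 465 bp upstream of an alternative start. It carried 3 further flanking peaks, ranked 77, 534 and 1397, and 2 of its 4 had the word. The zinc-finger gene l(3)neo38 had the most, with 5 flanking summits, of which the highest ranked 37 with 193 and 204. Lk6, a kinase of the translation factor eIF4E, and CG9837 had 4 each, and RapGAP1, a GTPase activator of Rap1, was 1 of 25 genes with 3. Of the 636 genes with a flanking peak, 517 had 1 and 119 had more. Each summit was counted here even where peaks overlap, as some of those at l(3)neo38, Lk6 and RapGAP1 do. Over the whole class, 49 regions of overlapping peaks held 2 or more flanking summits. A core peak was also present at 36 of the 636 and a distal peak at 162, by nearest TSS. Among all 13945 protein-coding genes, 223 had a core peak, and the number with a distal peak is not given here.

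At 500 to 2000 bp upstream stood the highest peak of the whole list, at sll, followed by CG42680 (ranks 1 and 2). CG44838 ranked 9 with 478 and 244 in replicates 2 and 3, 519 bp from an alternative start. Brinker (brk), a repressor of Dpp target genes, had 2 overlapping flanking peaks, both with the word. The higher, at X, 7306902 to 7307163 and 889 bp upstream, ranked 22 with 190 and 258. The lower, at 690 bp, ranked 178 with 86.4 and 170. Replicate 3 was higher at both, the reverse of the usual order. Cabut (cbt), a zinc-finger gene of the TGF-beta response, ranked 26 with 217 and 232 at 1371 bp, without the word.

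The highest downstream peaks ranked below the highest upstream ones. The highest at 100 to 500 bp was at Desat1, a fatty acid desaturase gene (3R, 12439877 to 12440034, in an intron 337 bp from the TSS), which ranked 52 with 234 and 123 in replicates 2 and 3. Kekkon 5 (kek5), a transmembrane protein gene, ranked 75 with 173 and 155 in the 5′ UTR. The NURF remodeller subunit gene Nurf-38 ranked 85 with 200 and 137, and Stat92E, the transcription factor of the JAK-STAT pathway, ranked 105 with 177 and 113. At 500 to 2000 bp, canoe (cno), which links adherens junctions to actin, ranked 12 with 338 and 302 in an intron, 1931 bp from the TSS. Split ends (spen), a nuclear RNA-binding protein gene of the EGFR pathway, ranked 19 with 281 and 241 at 1913 bp. The peak at hng2 differed more between replicates than the other downstream peaks named here, with 292 and 87.9 (mean 190 ± 145, SD, n = 2). Its replicate 3 summit was also the one nearest to a CG9837 peak, which had 176 in replicate 2.

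No difference in height between flanking and other IDR peaks passed its test. Only peaks already above the list's cutoff on pooled signal were compared. The share of pooled peaks above that cutoff differed by position, as given above. The signal of flanking peaks ran from 103 through a median of 135 to 1998, against medians of 129 in core peaks and 133 in distal peaks. At 100 to 500 bp upstream the median was 141, and at the same distance downstream 126. Overlapping peaks were merged for tests, each region being represented by its highest summit, which left 734 flanking regions. Of these, 379 (51.6%) had a summit above the median signal of the IDR list, against 99 of 208 core regions (47.6%; odds ratio 1.18, 95% interval 0.853 to 1.62, two-sided Fisher's exact test, adjusted p = 0.461) and 520 of 1020 distal regions (51.0%; 1.03, 0.845 to 1.25, adjusted p = 0.809). All regions come from the same 2 libraries, so these tests compare sets of regions and not conditions, with Benjamini-Hochberg adjustment over 12 tests in all.

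Upstream flanking regions were above the median in 246 of 458 cases (53.7%), and downstream ones in 133 of 276 (48.2%; odds ratio 1.25, 0.915 to 1.70, Fisher's exact test, adjusted p = 0.356). Ranked by replicate 3 alone, without replicate 2, the odds ratio was 1.49 and passed (Fisher's exact test, adjusted p = 0.0298). Ranked by replicate 2 alone it was 1.47 (exact test, adjusted p = 0.0963). Regions at 100 to 500 bp and at 500 to 2000 bp stood at 54.4% and 48.9% (1.25, 0.924 to 1.68, exact test, adjusted p = 0.356). None of the 12 tests passed with both replicates, and 2 had an unadjusted p under 0.05, both on the Kr word.

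The replicates ranked the flanking peaks only loosely alike, much as they did all IDR peaks. A summit of the permissive list lay within 250 bp in both replicates for 783 of 789, and 3 were unmatched in each. The nearest such summit had a median signal of 83.1 in replicate 2 and 59.0 in replicate 3, and replicate 2 was higher at 613 peaks (78.3%). The median ratio was 1.39, with a SD of 0.67 in its log2. Spearman's rho over the 783 peaks was 0.34, with values of 0.41 at 100 to 500 bp upstream and 0.23 at 500 to 2000 bp upstream. Both libraries share these peaks and their selection by pooled signal, so rho is a description. Over all IDR peaks rho was 0.35, the median ratio 1.46 and replicate 2 the higher at 81.2%.

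**Figure D2:**
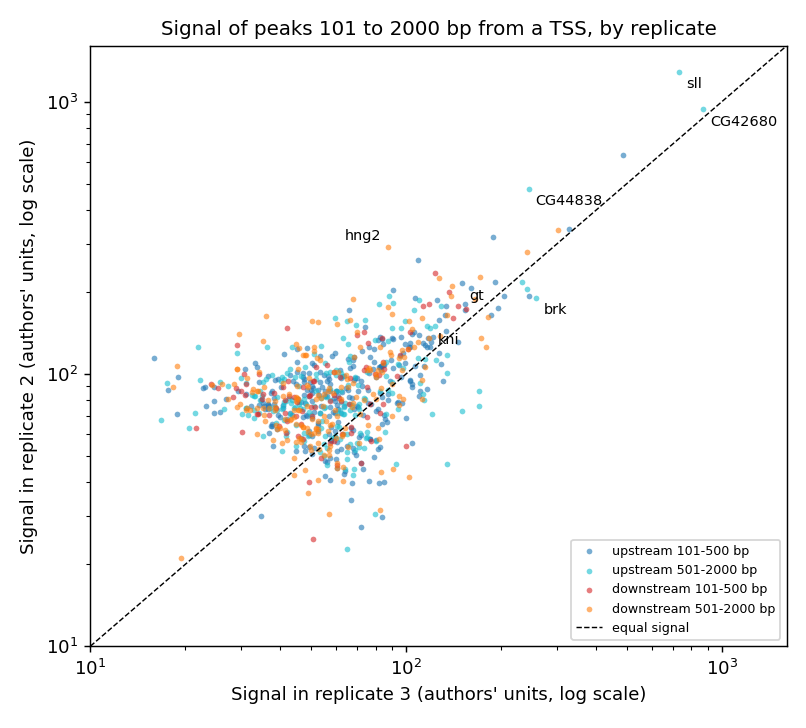
Signal of the flanking peaks matched in both replicates, replicate 2 on the vertical and replicate 3 on the horizontal axis, both in the authors' units on log scales, coloured by position. Most points lie above the dashed line of equal signal, with brk below it and hng2, whose replicate 3 summit is shared with a CG9837 peak, far above it.

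The share of flanking peaks that ranked high in both replicates was near that of all IDR peaks. A summit among the highest of each replicate's own list, taken to the length of the IDR list, lay within 250 bp of 473 flanking peaks (59.9%), against 58.7% of all IDR peaks. The IDR list is itself the top of the pooled signal of these 2 replicates, so a high rank in each is partly built in. Any high summit within 250 bp counted, even where it was not the nearest. By merged region the share was 61.9% at 100 to 500 bp and 55.1% at 500 to 2000 bp (odds ratio 1.33, 0.978 to 1.80, Fisher's exact test, adjusted p = 0.246). Against core regions (58.4% and 53.8%) the odds ratio was 1.21 (0.873 to 1.66, exact test, adjusted p = 0.461), and against distal regions (56.8%) it was 1.07 (0.880 to 1.30, adjusted p = 0.592). All 3 intervals include 1.

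Flanking summits were rare in coding sequence and lay in introns, 5′ UTRs and intergenic sequence. Each summit was given 1 annotation from protein-coding genes, in the order 5′ UTR, coding exon, 3′ UTR, intron, intergenic. Coding exons held 13 of 789 summits (1.65%, Wilson 95% interval 0.965 to 2.80), against 31.8% of bases at the same distances. In the highest peaks of replicate 2 alone they held 8 of 780 (1.03%) and in those of replicate 3 alone 16 of 826 (1.94%). Introns held 53.9% against 33.5% of bases, and 3′ UTRs 1.39% against 7.14%. The highest of the 13 coding summits were at ebd2, with 98.4 and 93.2 in replicates 2 and 3, and at MetRS, a methionyl-tRNA synthetase gene, with 103 and 73.8. These 2 genes were chosen after their values were seen.

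The annotation differed with side and distance. At 100 to 500 bp upstream, 49.0% of summits were intergenic (52.3% of bases), 45.5% intronic (29.4% of bases) and 0 of 290 were in coding exons, which allows a share of up to 1.31% (Wilson). Of the 132 intronic summits there, 112 lay within the gene whose start was nearest, upstream of an internal start. At 100 to 500 bp downstream, 51 of 92 summits (55.4%) were in a 5′ UTR, against 25.2% of bases, and 9 (9.78%) in a coding exon, against 47.2%. The 5′ UTR share there was 59.1% in replicate 2 alone and 45 of 90 in replicate 3 alone. The coding share there was 4.55% (5 of 110) in replicate 2 alone, without replicate 3, and 14.4% (13 of 90) in replicate 3 alone. At 500 to 2000 bp downstream, 172 of 205 (83.9%) were intronic, against 39.2% of bases, and 2 (0.976%) in a coding exon, against 42.8%. Over all positions, 301 of the 789 (38.1%) were nearest to an alternative start rather than the outermost of the gene. The same share of bases or of other IDR peaks is not given here.

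**Figure D3:**
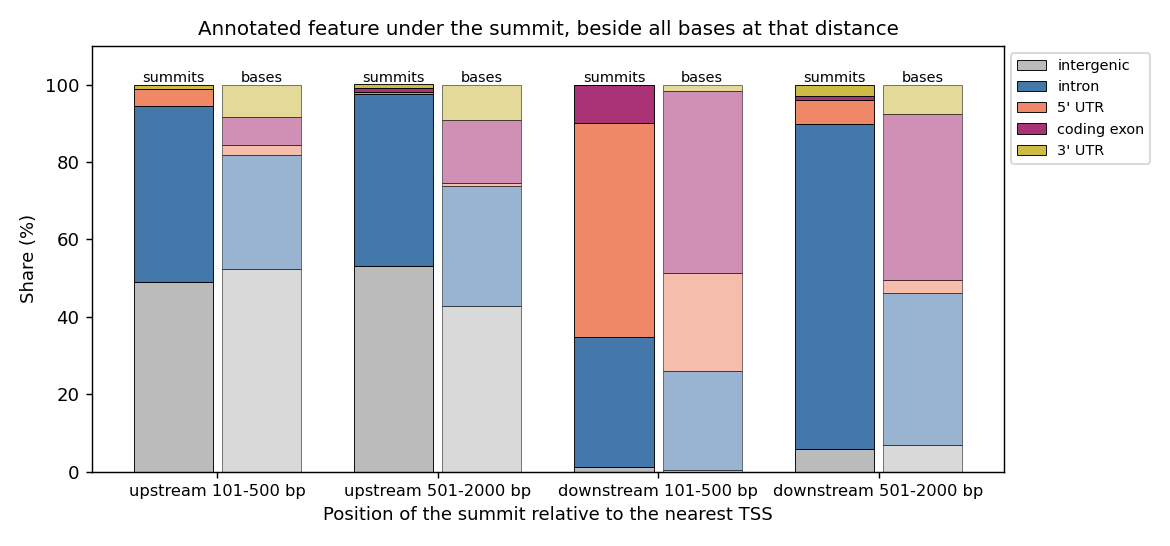
Stacked shares in percent (vertical axis) of flanking summits in each annotated feature, and of all bases at the same distance (paler bars), for the 4 positions (horizontal axis). Coding exons fill 47.2% and 42.8% of bases on the downstream side and 9.78% and 0.976% of the summits there.

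The Kr word was present at a minority of flanking peaks, and its share varied with position. It lay within 100 bp of 90 of 789 summits (11.4%, 9.37 to 13.8), against 12.5% of all IDR peaks and 1.87% of all bases at the same distances. The share was 7.59% (22 of 290, 5.06 to 11.2) at 100 to 500 bp upstream and 14.9% (30 of 202, 10.6 to 20.4) at 500 to 2000 bp upstream. Downstream it was 21.7% (20 of 92, 14.5 to 31.2) at 100 to 500 bp and 8.78% (18 of 205, 5.63 to 13.5) at 500 to 2000 bp. The bases at those distances had 1.95%, 2.18%, 1.44% and 1.80% in the same order. Among the 4 positions in the IDR list, the densest, just upstream, had the lowest share of the word, and the smallest class, just downstream, had the highest. Core peaks had the word at 6.22%. Their density of 61.7 per Mb (53.9 to 70.3) has an interval that overlaps that of 100 to 500 bp upstream, 56.7 (50.3 to 63.6). This order of the 4 classes was not tested as such.

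Either replicate alone kept the same 2 classes high and the same 2 low, but replicate 2 changed the order of the low pair and replicate 3 that of the high pair. At 100 to 500 bp upstream the share was 8.24% in replicate 2 and 7.03% in replicate 3, and at 500 to 2000 bp upstream 14.5% and 17.1%. Downstream it was 15.5% and 15.6% at 100 to 500 bp, and 7.88% and 9.43% at 500 to 2000 bp. The lowest share was thus 500 to 2000 bp downstream in replicate 2, and the highest 500 to 2000 bp upstream in replicate 3. At 100 to 500 bp downstream either replicate was below the IDR list, on 110 and 90 peaks.

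**Figure D4:**
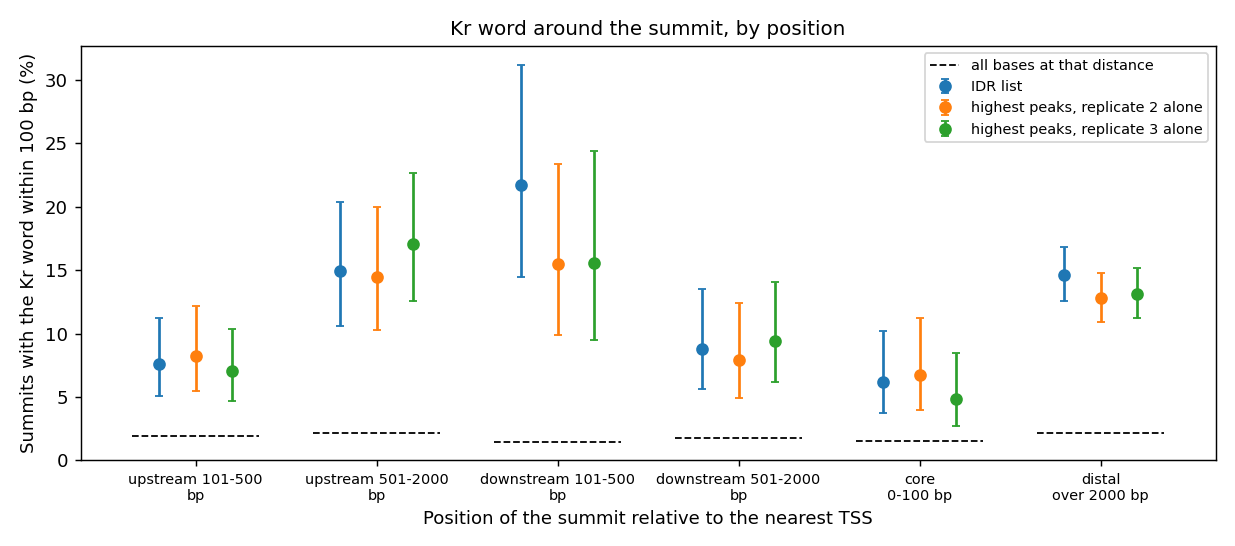
Share of summits with the Kr word within 100 bp (vertical axis, percent) by position, for the IDR list and for as many of the highest peaks of each replicate, with Wilson 95% intervals; dashed lines give the share of all bases at that distance. The shares run from 7.59% just upstream to 21.7% just downstream in the IDR list, and all points lie above their dashed lines.

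By merged region, the word was at 87 of 734 flanking regions (11.9%) and 13 of 208 core regions (6.25%). The odds ratio was 2.02 (1.09 to 4.02), with a two-sided Fisher's exact p of 0.0213 and an adjusted p of 0.246, which did not pass. In the highest peaks of replicate 3 alone, without replicate 2, it was 2.57 and passed (exact test, adjusted p = 0.0298), and with the shorter word AAGGGT it was 1.82 and passed (adjusted p = 0.0387). Against 155 of 1020 distal regions (15.2%) the odds ratio was 0.751 (0.559 to 1.00; Fisher's exact p = 0.0493, adjusted p = 0.246). Upstream and downstream regions had 10.9% and 13.4% (odds ratio 0.792, 0.491 to 1.29, exact test, adjusted p = 0.461), and regions at 100 to 500 bp and at 500 to 2000 bp 11.4% and 12.3% (0.917, 0.570 to 1.47, adjusted p = 0.799). Each of these pools a class with a high share and one with a low share.

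Where present within 100 bp, the word lay at a median of 25.5 bp from the summit, with 69 of 90 (76.7%) within 50 bp, against 10 of 14 (71.4%) in core peaks and 119 of 159 (74.8%) in distal peaks. More than 1 copy was found at 6 flanking peaks, all of them 500 to 2000 bp upstream, the kni window among them. Of the 10 highest IDR peaks 4 were flanking, at sll, CG42680, Gpat4 and CG44838, and each of these had the word. Whether the core and distal peaks among the 10 had it is not given here. Of the 100 highest IDR peaks 38 were flanking, close to the 37.5% of the whole list.

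Other words told flanking from core regions more sharply than the Kr word did. In all, 14 further words were sought on both strands, each against core and against distal regions, and 4 of 28 tests (14.3%) passed after Benjamini-Hochberg adjustment, against 5 before it. TATCGATA, the DNA replication-related element of housekeeping promoters, was at 3 of 734 flanking regions (0.409%) and 22 of 208 core regions (10.6%; odds ratio 0.0349, 0.00661 to 0.118, Fisher's exact test, adjusted p = 5.06e-11). GGTCACACT, the core of Motif 1 of housekeeping promoters, was at 1 (0.136%) and 9 (4.33%; 0.0303, 0.000687 to 0.221, exact test, adjusted p = 0.000123). Among IDR peaks above the median signal the Motif 1 difference did not pass (exact test, adjusted p = 0.0687). All bases show the same contrast, with TATCGATA in 0.478% of windows beside promoters and 5.11% of core windows, and GGTCACACT in 0.135% and 3.69%. The flanking peaks thus carried these words about as rarely as the sequence around them.

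A further pair of words separated flanking from distal regions, by smaller margins. GAGAGAG, the repeat bound by GAGA factor and Clamp, was at 84 of 734 flanking regions (11.4%) and 75 of 1020 distal regions (7.35%; odds ratio 1.63, 1.16 to 2.29, Fisher's exact test, adjusted p = 0.0283). All bases had it in 2.57% of windows beside promoters and 2.32% of distal windows. Its share of summits was 14.8% at 100 to 500 bp upstream, 6.44% at 500 to 2000 bp upstream, 13.0% at 100 to 500 bp downstream and 10.7% at 500 to 2000 bp downstream. It did not pass the exact test with the outermost start of each gene (odds ratio 1.18, adjusted p = 0.645), with an inner limit of 200 bp (1.63, adjusted p = 0.0595), among peaks above the median signal (1.27, adjusted p = 0.768) or within 50 bp (1.54, adjusted p = 0.334). In each replicate alone the shares of all peaks were 12.2% flanking and 6.73% distal in replicate 2, and 11.3% and 6.96% in replicate 3.

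TATAAA, the word of the TATA box, was at 174 flanking regions (23.7%) and 171 distal regions (16.8%; odds ratio 1.54, 1.21 to 1.97, Fisher's exact test, adjusted p = 0.00376). The word was sought anywhere in the window, and not by its distance from a TSS. All bases had it in 20.7% of windows beside promoters and 22.1% of distal windows, so the flanking summits were near their surroundings and the distal ones below theirs. It did not pass the exact test with an inner limit of 200 bp (1.32, adjusted p = 0.216), with an outer limit of 1000 bp (1.36, adjusted p = 0.126), without replicate 2 (1.30, adjusted p = 0.147) or within 50 bp (1.48, adjusted p = 0.0984). CAGGTAG, the site of the pioneer factor Zelda, was at 3.55% of flanking summits and 1.36% of bases, and neither of its tests passed. Words for bHLH, Bicoid, Hunchback, Caudal, homeodomain, GATA, Runt and Su(H) proteins were at 0.917 to 1.24 times their share of bases. The median GC content within 100 bp of the summit was 42.3% in flanking peaks, 39.3% at 100 to 500 bp upstream, and 44.3% in both core and distal peaks, and its part in these word shares was not tested.

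Flanking peaks were found at many patterning genes. Of 190 genes in 19 lists of embryonic regulators, 57 (30.0%) were nearest to a flanking peak, against 4.56% of all 13945 protein-coding genes. The share depended on how many starts a gene has, being 2.76% of genes with 1 start, 7.73% with 2 to 3 and 23.0% with 4 or more. The median was 1 start for listed genes and 1 for all genes, and 2 for genes with a flanking peak. The lists were chosen with results of these data known, and genes in clusters share peaks. Distal peaks gave another order of the lists. By nearest TSS they were at 7 of 11 Hox, 8 of 11 pair-rule and 8 of 14 segment-polarity genes. For the gap, Notch and co-repressor lists it was 3 of 7, 5 of 12 and 4 of 9. The share of all protein-coding genes nearest to a distal peak is not given here, so these distal counts have no background beside them.

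**Figure D5:**
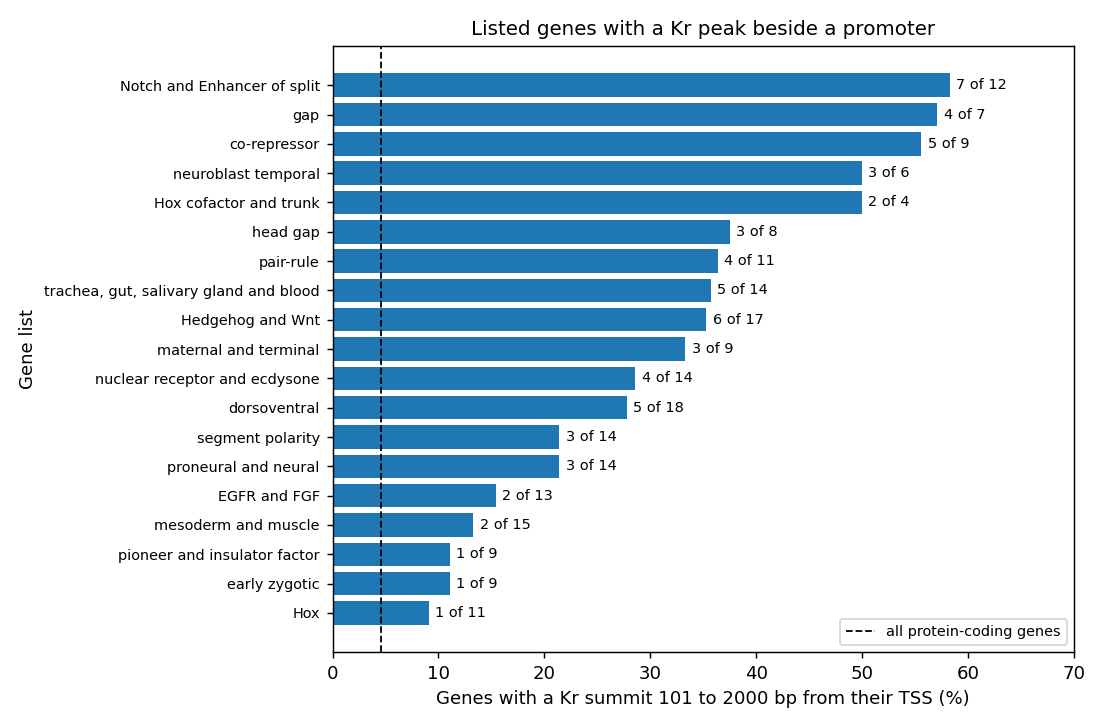
Percent of the genes in each list (horizontal axis) that are nearest to a flanking peak, with the counts beside the bars; the dashed line is the share of all protein-coding genes, 4.56%. The Notch and Enhancer of split, gap and co-repressor lists lead, and the Hox list comes last with 1 of 11. Distal peaks, which were at 7 of the 11 genes of the Hox list, are not counted in the bars. Their share over all genes is not given here.

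Among gap genes, 4 of 7 had a flanking peak, namely gt, kni, tll and Kr, with 5 peaks in all. After gt and kni, tailless (tll), a terminal gap gene, had 74.5 and 35.8 in replicates 2 and 3 at 348 bp upstream, and ranked 1974. The overlapping flanking peaks at Kr itself, 242 and 630 bp upstream, had 85.3 and 82.7, and 86.3 and 82.7, where 1 summit of replicate 3 was nearest to both. Neither had the word. Of the neuroblast temporal factors 3 of 6 had one, Kr among them. The POU-domain genes nubbin (nub), with 57.5 and 76.9 at 205 bp, and pdm2, with 89.5 and 40.2 at 297 bp, each had it upstream of an alternative start, and the nub peak had the word.

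The head gap and pair-rule lists had flanking peaks at 3 of 8 and 4 of 11 genes. None of these few peaks had the word, which was at 11.4% of all flanking peaks. Empty spiracles (ems), a homeobox gene of the head and tracheal openings, had 82.5 and 65.8 in replicates 2 and 3 at 125 bp upstream. Cap-n-collar (cnc), a bZIP gene of the jaw segments, had 72.3 and 25.7 at 480 bp. Sloppy paired 2 (slp2), a forkhead gene in both lists, had 71.4 at 262 bp in replicate 2 and 18.8 in replicate 3, whose nearest summit was a low one beside a high one. Drumstick (drm), an odd-skipped relative, had 84.1 and 113 at 534 bp. Odd-paired (opa), a zinc-finger gene that times the pair-rule network, had 72.0 and 59.4 at 188 bp, and the homeobox gene fushi tarazu (ftz) 70.6 and 43.6 at 432 bp. All of these lay upstream of their TSS.

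Segment-polarity genes had flanking peaks at 3 of 14. Engrailed (en), a homeodomain factor of posterior compartments, had 3. Those at 1480 and 1680 bp upstream overlapped, and had 109 and 94.4, and 74.1 and 94.4, in replicates 2 and 3, again with 1 replicate 3 summit nearest to both. The third, in an intron 1947 bp downstream of an alternative start, had 74.0 and 59.5. The Wnt ligand gene wingless (wg) had 56.7 and 57.9 at 177 bp upstream, and naked cuticle (nkd), which feeds back on Wnt signalling, 86.9 and 33.6 in an intron at 1744 bp. In the Hox list, which does not hold ftz, there was 1 of 11. It was zerknüllt (zen), which patterns dorsal tissue rather than segments, with 71.9 and 43.0 at 399 bp upstream. The Hox cofactor homothorax (hth) had 76.7 and 40.7, and the trunk gene teashirt (tsh) 87.2 and 17.6. Maternal and terminal factors had 3 of 9, with capicua (cic) at 97.9 and 36.5 and groucho (gro) at 39.6 and 81.9 beside tll.

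The Notch list led by share, with 7 of 12 genes and 11 flanking peaks. Of these genes 6 encode bHLH repressors of the Enhancer of split complex, which lie side by side, and the last was Notch. E(spl)m7-HLH had 3 peaks, the highest at rank 87 with 177 and 134 in replicates 2 and 3, 337 bp upstream. E(spl)mbeta-HLH had 151 and 69.5 at 623 bp, and E(spl)m3-HLH 80.3 and 114 at 507 bp. None of the 11 had the Kr word, which was at 11.4% of all flanking peaks. Co-repressors had 5 of 9. Sin3A, a scaffold of histone deacetylases, had 157 and 102 in an intron at 1364 bp downstream. Brakeless (sbb) had 134 and 91.1, and 68.3 and 85.6, upstream of 2 of its starts. Gro, Gug and E(z) made up the rest.

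Lists for other axes and tissues had smaller shares than the gap, Notch and co-repressor lists. Of 18 dorsoventral genes 5 had a flanking peak, with brk ahead of dpp, the BMP ligand, at 104 and 42.9. In the list of trachea, gut, salivary gland and blood 5 of 14 had one. Fork head (fkh), a factor of salivary gland and gut, had 206 and 161 in replicates 2 and 3 at 226 bp upstream (mean 184 ± 32.2, SD, n = 2), and a lower peak with the word at 1113 bp. Pannier (pnr), a GATA factor, had 81.3 and 59.2. In the Hedgehog and Wnt list 6 of 17 had one, of which 4 were Frizzled receptor genes and 1 the co-receptor arrow (arr, 67.2 and 55.7), beside wg. Frizzled 2 (fz2) had 158 and 73.9 at 1322 bp, and fz 73.7 and 66.2 at 1795 bp.

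Proneural and neural genes had 3 of 14. The neuronal RNA-binding gene elav had 3 flanking peaks, with 137 and 82.9 in replicates 2 and 3 at the highest, and the zinc-finger gene nerfin-1 had 149 and 74.2. The EGFR and FGF list had 2 of 13, argos (aos), a secreted inhibitor of EGFR, with 94.2 and 88.6, and the ETS factor pointed (pnt), with 43.5 and 83.1 at the higher of 2 named. Nuclear receptors had 4 of 14, led by Hnf4 with 76.7 and 60.6. Mesodermal genes had 2 of 15, kirre, which acts in myoblast fusion, with 78.5 and 64.0, and the heart gene tinman (tin), with 39.7 and 67.3. Early zygotic genes and pioneer or insulator factors had 1 of 9 each, sisA with 74.0 and 33.1 and psq with 62.9 and 38.9. For those 2 lists and the Hox list, 1 gene more or less decides the distance from the background.

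At the edges of the range values on both sides were close. Peaks 100 to 150 bp from a TSS, just inside, numbered 85 with a median signal of 137 and the Kr word at 10.6%, and those at 50 to 100 bp, just outside, 91 with 127 and 8.79%. At the outer edge, 106 peaks at 1500 to 2000 bp had a median of 124 and the word at 14.2%, and 99 at 2000 to 2500 bp had 131 and 10.1%. The nearest TSS was shared by 2 genes for 15 flanking peaks, which were given to the first by name. Only 3 flanking peaks lay within 20 kb of Kr.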

How the data were processed

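Per the labels, chromatin of 2 biological replicates was precipitated with an antibody to GFP. Per the deposited text lists of files, the authors called permissive peaks for each replicate and for both pooled against a control, not analysed here, and made the IDR list from them. The aligner, peak caller and IDR threshold were not given in the sources used here. The authors deposited for each peak a signal value, of unstated scale, and the −log10 of a q-value, at most 0.00325 as q among the peaks described. The dm6 lists were used and the dm3 lists were not. The IDR peaks were those with the highest signal of the pooled list, every one down to their lowest.

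Coordinates are dm6, counted from 1. Genes came from Ensembl release 115 (BDGP6.54) on 2L, 2R, 3L, 3R, 4 and X, and sequence from RefSeq; 99.8% of 30593 annotated start codons read ATG in it. Summits, densities, words and annotations were computed per base in Python 3.11.15 with numpy 2.4.6, pandas 2.3.3 and scipy 1.17.1, and drawn with matplotlib 3.10.9. Every base of known sequence served as background, with no random draws. A replicate's signal is that of the summit nearest to the peak within 250 bp, which can be a low neighbour of a higher one. Means over replicates take the signal as linear. Overlapping peaks were merged, and Fisher's exact tests were two-sided on the highest summit of each region, adjusted by Benjamini-Hochberg within 12 tests and within 28 word tests. None of the words contains another. The nearest TSS and its side, the word search, the merging of regions and Fisher's exact test were tested on simulated data, and the other steps were not.

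The positions, gene lists, words and tests were chosen with earlier results of these data known. The genes named are those nearest to the 6 highest peaks of each of the 4 positions, all members of the gap, head gap, pair-rule, segment polarity, Hox, maternal and terminal, and neuroblast temporal lists, up to 3 peaks of each other list, and the 5 genes with the most flanking peaks, ties going to the higher summed signal. Other genes are named only where a count is resolved into its genes. Alternatives were the outermost start of each gene, limits of 200 and 1000 bp, each replicate's own highest peaks in equal number, the IDR peaks above the median signal, windows of 50 and 200 bp, other Kr words, match distances of 100 and 500 bp, every peak unmerged, and leaving out peaks within 20 kb of Kr. The density ratio of the near sides and its alternatives were added after the counts were seen. The sequence for the fourth position is not reported here.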

Additional observations from a re-analysis of the deposited data

How the results depend on the processing

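With 1 group of 2 replicates, no library depth and a signal of unknown scale, these results describe peak positions, and no paired analysis was possible because there is 1 group. Odds ratios near 1 crossed it under some settings, all without passing, and the cause was not tested. For the Kr word upstream against downstream they were 1.02 with outermost starts, 1.00 from 200 bp and 1.01 without replicate 3. For the word at 100 to 500 bp against 500 to 2000 bp they were 1.05 with outermost starts and 1.00 among peaks above the median signal, and for the word in flanking against distal regions 1.05 among those above the median. For a signal above the median, flanking against core gave 0.983 from 200 bp and 0.909 without replicate 2, and flanking against distal 0.984 from 200 bp and 0.966 without replicate 3. High rank in both replicates, flanking against core, gave 0.751 among those above the median. Results that passed only under an alternative were the word against core (2.57 without replicate 2, 1.82 for AAGGGT) and upstream against downstream for a signal above the median (1.49 without replicate 2). The peaks above the median signal held 402 flanking peaks, and 2 of the 28 word tests passed from 200 bp, among those above the median and within 50 bp, against 4, and 6 with a window of 200 bp. The near-side density ratio of 4.05 was 2.11 with outermost starts, 1.32 in the pooled list and 1.18 outside the IDR list, and 5.07 among those above the median. Leaving out either replicate gave 780 to 826 flanking peaks, near-side ratios of 3.12 to 4.46, 3 to 4 passing word tests, and odds ratios for the Kr word of 1.68 to 2.57 against core, 0.831 to 0.832 against distal, 0.993 to 1.01 by side and 0.692 to 0.924 by distance. For a signal above the median these were 0.909 to 1.31 against core, 0.966 to 1.17 against distal, 1.47 to 1.49 by side and 1.22 to 1.27 by distance. High rank in both replicates cannot be computed from 1 replicate, and the share above the median was not run within those peaks. TATCGATA against core passed in every setting run.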

Other observations

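The strand of the Kr word relative to the nearest gene was counted without a test. AAGGGTT read on the coding strand of that gene at 32 of the 90 flanking peaks with the word, taking the copy nearest the summit. By position this held for 6 of 22 at 100 to 500 bp upstream, 18 of 30 at 500 to 2000 bp upstream, 3 of 20 at 100 to 500 bp downstream and 5 of 18 at 500 to 2000 bp downstream. Core peaks had 8 of 14 and distal peaks 85 of 159. The 4 classes were compared after the counts were seen.

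Flanking peaks made up 37.5% of the whole IDR list. On X they were 106 of 236 IDR peaks (44.9%), the highest share of an arm. Chromosome 4 had the lowest, 27.3%, which rests on 3 of 11 peaks, followed by 34.7% on 3L. Differences between arms were not tested, and the share of each arm's bases at flanking distances is not given here.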
